A study of Mus musculus with 21 samples.

Results

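The genes described here were grouped as replication-independent histone variants: *H3f3a* and *H3f3b* (H3.3), *H2afz* and *H2afv* (H2A.Z), *H2afx* (H2A.X), *H2afy* (macroH2A1), *H1f0* (H1.0) and *H1fx* (H1.10). They were picked by symbol and found by Ensembl identifier in both deposited count tables. All 8 were among the 51467 genes of the count tables and among the 14518 genes tested.

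Cells were V6.5 mouse embryonic stem cells (ESCs) grown in serum medium with LIF and 2i, either wild type or with *Ddx6* knocked out by CRISPR-Cas9. DDX6 is an RNA helicase that binds decapping proteins and has been implicated in translational repression and in mRNA decay. There were 3 wild-type cultures and 4 *Ddx6* KO cultures, 2 from each of 2 clones, so that the knockout is represented by 2 clonal lines with different edits, and no line with *Ddx6* put back was analysed here. Every culture, wild type included, was labelled with 500 µM 4-thiouridine (4sU) for 30 min, and the same RNA gave a labelled (nascent) fraction and a total RNA library. Total counts were 2441639 to 3570192 per 4sU library and 5724179 to 7369651 per total RNA library.

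*Ddx6* itself was read first. Its total RNA was 371 ± 31.6 CPM (SD, n = 3) in wild type and 42.6 ± 23.7 (n = 4) in *Ddx6* KO, while its 4sU RNA was 254 ± 15.6 and 192 ± 43.2. CPM here are read counts scaled to a common library total with TMM factors over the 14 libraries. The 7 ESC markers summed to 4400 to 4583 CPM in wild-type total RNA and 4558 to 4727 in *Ddx6* KO. Singly, 4 of the 7 rose and 1 fell in total RNA at an edgeR adjusted p below 0.05. Their log2 changes ran from -0.51 to 0.59, and 19.5% of all tested genes rose and 31.0% fell. The 4 primed epiblast markers summed to 141 to 154 CPM in wild type and 80.4 to 91.7 in *Ddx6* KO, and the 5 fibroblast or feeder markers, with *Postn* at 0, to 3.35 to 5.76 and 10.7 to 12.7. Of these 5, 3 averaged under 1 CPM and only 2 were tested. Both rose in total RNA (log2 0.97 and 1.47). The larger rise equals the highest among the tested genes within 300 kb of *H2afx*, which lies near *Ddx6*. The part of primed, fibroblast or feeder cells in the results below was not tested.

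Most histone proteins come from replication-dependent genes, whose mRNAs are made in S phase, lack a poly(A) tail and end in a stem-loop. Variant histones are mostly made from ordinary polyadenylated mRNAs throughout the cell cycle and are placed into chromatin by dedicated chaperones and remodellers. H3.3 marks active genes and, with other chaperones, repeats and telomeres. H2A.Z sits next to transcription start sites, H2A.X is phosphorylated around DNA breaks, macroH2A carries a large extra domain and is enriched in silent chromatin, and H1.0 is the linker histone known to accumulate in resting and differentiated cells.

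The sequences below show why paired genes can be read apart at the RNA level. The H3.3 genes differ at 95 bases of their coding sequences, 81 of them at the last base of a codon, and their translated coding sequences are identical over 136 of 136 residues. The first 90 coding bases of each, from the Gencode M21 transcripts on GRCm38, are given with the 20 differing bases in capitals.
H3f3a: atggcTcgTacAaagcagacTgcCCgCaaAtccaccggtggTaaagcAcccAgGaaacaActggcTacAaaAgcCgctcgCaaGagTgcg
H3f3b: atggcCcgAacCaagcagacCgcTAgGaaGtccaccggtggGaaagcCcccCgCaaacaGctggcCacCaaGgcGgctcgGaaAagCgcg

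The H2A.Z genes encode proteins that differ at 3 of 128 residues, with 81 coding differences, 70 of them at the last base of a codon. Capitals mark the 19 differences in the first 90 coding bases.
H2afz: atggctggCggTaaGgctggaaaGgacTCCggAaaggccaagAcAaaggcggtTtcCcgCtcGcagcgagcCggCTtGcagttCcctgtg
H2afv: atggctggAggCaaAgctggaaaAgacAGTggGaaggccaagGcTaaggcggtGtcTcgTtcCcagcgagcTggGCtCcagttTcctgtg

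*H2afx* is the one member with the histone stem-loop. The element begins 47 bases after the stop codon in a 3′ UTR of 884 bases, and the stem-loops of the 3 replication-dependent genes with the most wild-type counts and a stem-loop are shown beside it, with the stem and loop in capitals.
H2afx: cacaaaGGCCCTTTTAAGGGCCaccacc
Hist1h1c: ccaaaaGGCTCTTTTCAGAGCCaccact
Hist1h1d: tcaaacGGCTCTTTTCAGAGCCacccac
Hist1h4d: accaaaGGCCCTTTTCAGGGCCactacc

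Among 11946 protein-coding genes tested, 46 had this motif after the stop codon, or 0.385%, and 38 of them were replication-dependent histone genes by symbol. *H2afx*, *H1f0* and *H1fx* each have 1 exon, as do 2.61% of the genes. None of the 8 members held the letters GCACTT, which pair with the seed shared by the main ESC microRNAs, in its 3′ UTR, while 31.6% of the genes did. This window search is a description of the letters only.

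In *Ddx6* KO cells, total over 4sU rose for 4 of the 8 variant genes and fell for 1. The ratio of total RNA to 4sU RNA is used here as relative mRNA stability, and its change is the genotype by assay term of the edgeR fit. *H1f0* rose by 0.78 ± 0.12 (log2, SE; edgeR quasi-likelihood adjusted p = 1.81e-06), *H3f3b* by 0.64 ± 0.07 (adjusted p = 5.41e-09), *H2afx* by 0.63 ± 0.08 (adjusted p = 1.66e-07) and *H2afz* by 0.47 ± 0.11 (adjusted p = 0.00183). *H2afy* fell by 0.56 ± 0.12 (adjusted p = 0.000542). *H3f3a*, *H2afv* and *H1fx* were at -0.10, -0.15 and -0.27 and were not called. With 1 culture left out these values ran from -0.15 to -0.0024, from -0.28 to -0.08 and from -0.55 to -0.11, with no call. Of all tested genes 12.4% were called for stability, 3.79% of all tested genes as higher in *Ddx6* KO and 8.58% as lower. The median of the members was 0.19 against -0.09 over all genes. No member passed a fold change of 2 as well, a rule that 1.08% of genes met.

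**Figure D1:**
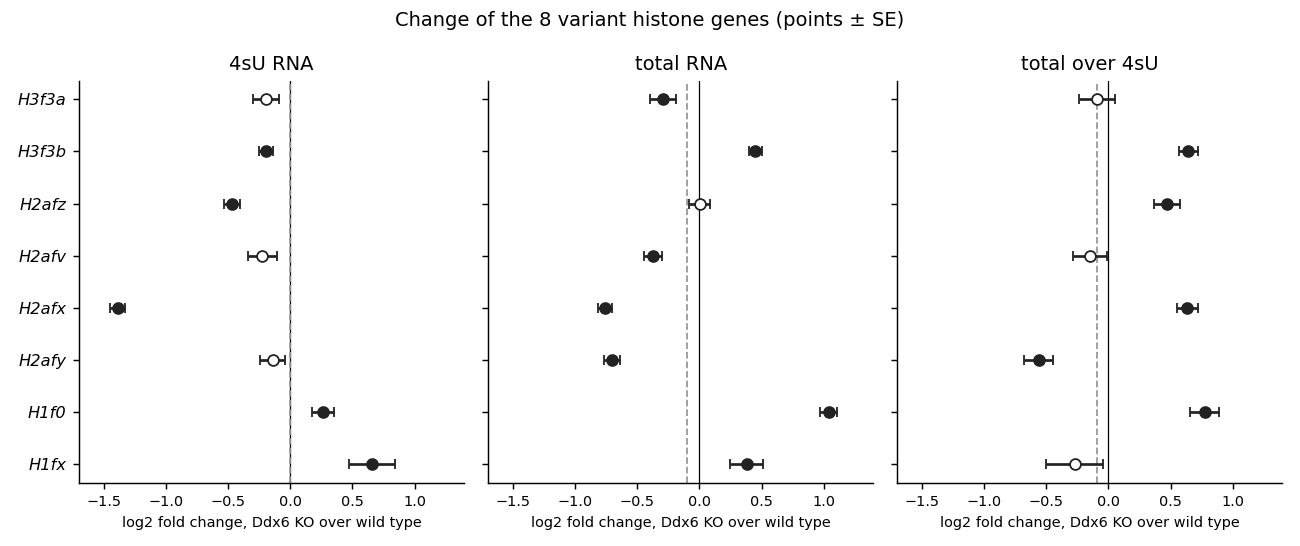
Log2 fold change of Ddx6 KO over wild type for each of the 8 genes in 4sU RNA, total RNA and total over 4sU (points, with SE bars from the edgeR fit). Filled points were called at an adjusted p below 0.05, and the dashed line is the median of all tested genes. In total over 4sU, H1f0, H3f3b, H2afx and H2afz lie right of 0 and H2afy lies left of it.

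In total RNA 7 of the 8 members were called, where 50.5% of all genes were. *H1f0*, *H3f3b* and *H1fx* rose (19.5% of all genes rose) and *H2afx*, *H2afy*, *H2afv* and *H3f3a* fell (31.0% of all genes fell). The groups did not overlap for these 7 members, nor for 52.4% of all genes. In 4sU RNA 5 members were called, where 41.6% of all genes were. *H1f0* and *H1fx* rose (20.6% of all genes rose), and *H2afx*, *H2afz* and *H3f3b* fell (21.0% of all genes fell). In 4sU RNA the groups did not overlap for *H1f0*, *H2afx*, *H2afz* and *H3f3b*, nor for 41.7% of all genes, and *H2afx* alone also passed a fold change of 2, as did 10.9% of genes. As these are bulk RNA samples, fewer cells with an RNA and less of it per cell cannot be told apart. Scaling by library size alone raised the median of all genes in 4sU RNA by 0.21 (from 0.00) and in total RNA from -0.10 to 0.06, and turned the split of calls in total RNA from 2829 higher and 4498 lower to 4277 higher and 2814 lower, and in 4sU RNA from 2984 and 3050 to 5285 and 1838. With TMM within each assay the total RNA calls were 3606 higher and 3495 lower, and the stability calls 734 higher and 577 lower in place of 550 and 1246. The 5 stability calls of members held in each of the 19 other fits run, with the same sign.

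**Figure D2:**
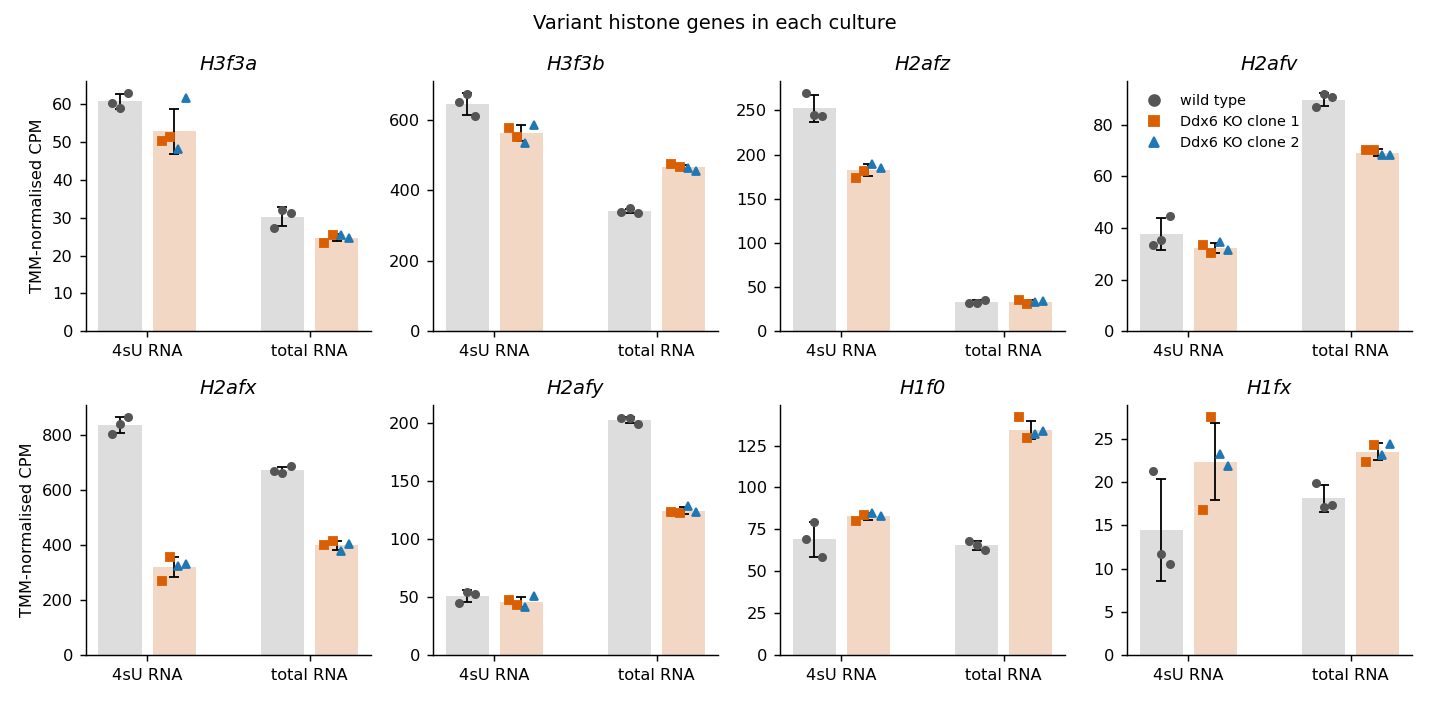
TMM-normalised CPM of each gene in 4sU RNA and total RNA. Bars and error bars are the mean and SD of 3 wild-type (grey) and 4 Ddx6 KO (orange) cultures, and symbols are single cultures. H1f0 in total RNA is 129 CPM or more in every Ddx6 KO culture and 67.7 CPM or less in every wild-type culture.

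The H3.3 genes moved apart in *Ddx6* KO cells. *H3f3b* lies on the minus strand of chromosome 11 (GRCm38, 116021912 to 116027962). Its 4sU level was 649, 673 and 611 CPM in the wild-type cultures and 577, 552, 534 and 586 in the *Ddx6* KO cultures. Its total RNA was 337, 348 and 337 CPM in wild type and 474, 466, 464 and 454 in *Ddx6* KO. Less labelled RNA thus went with more total RNA, and neither readout overlapped between the groups. The 4sU difference was -0.20 ± 0.05 (log2, SE; edgeR adjusted p = 0.0021) and the total RNA difference 0.45 ± 0.05 (adjusted p = 1.3e-10). The 4sU call depended on the scaling: with library size alone the difference was 0.01 and was not called.

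*H3f3a* lies on the minus strand of chromosome 1 (180800832 to 180813943). Its 4sU level was 60.3, 59.0 and 63.0 CPM in wild type and 50.3, 51.4, 48.1 and 61.5 in *Ddx6* KO, so that 1 knockout culture reached the wild-type range. Its total RNA was 27.4, 32.1 and 31.2 CPM in wild type and 23.3, 25.4, 25.4 and 24.7 in *Ddx6* KO. The total RNA difference was -0.29 ± 0.10 (edgeR adjusted p = 0.0139), and it was not called in 6 of 16 alternative fits, including those without wild-type culture 2 (-0.25) and without wild-type culture 3 (-0.27).

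Within each culture, *H3f3a* gave 8.63% ± 0.65 of the H3.3 counts in wild-type 4sU RNA and 8.57% ± 0.65 in *Ddx6* KO (SD, n = 3 and 4). In total RNA it gave 8.15% ± 0.55 in wild type and 5.05% ± 0.24 in *Ddx6* KO, without overlap. The log2 ratio of *H3f3a* to *H3f3b* changed by -0.01 in 4sU RNA, by -0.74 in total RNA and by -0.73 in total over 4sU. The exact two-sided permutation p of the last 2 was 0.0571, the smallest that 3 against 4 cultures allow (0.0857 after adjustment over the 9 ratio tests). The ratio in total over 4sU in the wild-type cultures was 0.88, 1.05 and 0.90, and 0.57, 0.58, 0.61 and 0.52 in *Ddx6* KO.

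The reads of *H3f3a* are hard to place. Of the 50-base windows of its transcript, 30.3% recur in transcripts of 42 other genes, 38 of them pseudogenes, against 8.40% for *H3f3b*. Because only uniquely mapped reads were counted, the share of *H3f3a* in H3.3 RNA can be too low. In the paired-end run of the 4sU libraries *H3f3a* was 1.64 times as high, in CPM of that run, as in the first, single-end run (log2 0.71 ± 0.23, SD, n = 7, against a median of -0.17 over all genes). *H3f3b*, with fewer recurring windows, was also higher in that run, at 1.43 times (93.7 percentile of genes). *H1fx* was lower, at 0.57 times (1.87 percentile), and *H2afv*, *H2afx*, *H2afy* and *H1f0* were at 0.81 to 0.94 times. The total RNA libraries were sequenced single-end only, so levels of total over 4sU across genes carry this difference, while a change between genotypes compares libraries sequenced alike.

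**Figure D3:**
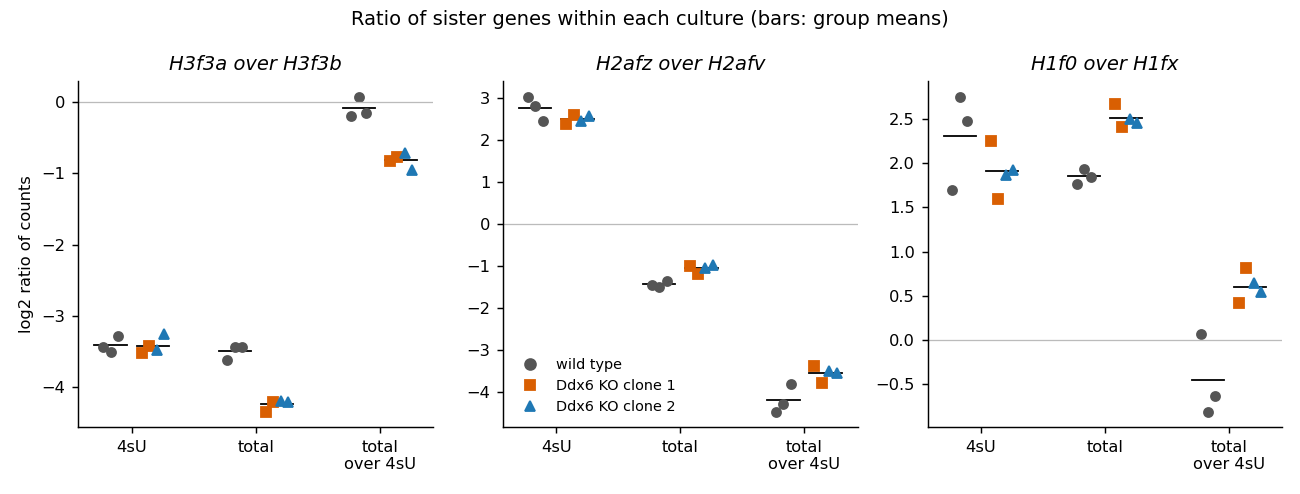
Log2 ratio of the counts of H3f3a to H3f3b, H2afz to H2afv and H1f0 to H1fx within each of the 7 cultures, in 4sU RNA, total RNA and total over 4sU (symbols; bars are group means). In total RNA the 4 Ddx6 KO cultures lie outside the wild-type range for every pair, below it for H3f3a over H3f3b and above it for the others.

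The H2A.Z genes had very different total over 4sU ratios. *H2afz* (chromosome 3, plus strand, 137864487 to 137866922) was at 270, 244 and 243 CPM in wild-type 4sU RNA and at 173, 182, 189 and 185 in *Ddx6* KO, and the groups did not overlap (-0.47 ± 0.07, log2, SE; edgeR adjusted p = 2.56e-08). In total RNA it was at 31.6, 32.3 and 35.1 CPM in wild type and 35.004, 30.7, 32.7 and 34.3 in *Ddx6* KO, a difference of 0.00 with a 95% interval from -0.17 to 0.17. Less labelling thus stood beside a total level that did not differ detectably.

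*H2afv* (chromosome 11, minus strand, 6427229 to 6444443) was at 33.2, 35.2 and 44.5 CPM in wild-type 4sU RNA and 33.3, 30.2, 34.5 and 31.4 in *Ddx6* KO, with overlap and no call (-0.23 ± 0.12, edgeR adjusted p = 0.114). Its total RNA was 86.7, 91.7 and 90.6 CPM in wild type and 70.3, 70.3, 68.1 and 68.1 in *Ddx6* KO, each knockout culture below each wild-type culture (-0.37 ± 0.07, adjusted p = 2.15e-05). The log2 ratio of *H2afz* to *H2afv* rose between genotypes by 0.38 in total RNA and by 0.64 in total over 4sU, each with an exact permutation p of 0.0571, and changed by -0.26 in 4sU RNA (p = 0.229). The last value was -0.13 without wild-type culture 1 and -0.41 without wild-type culture 3.

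*H2afz* was near the bottom and *H2afv* near the top of the tested genes for wild-type total over 4sU, at the 5.59 and 85.0 percentile (log2 -2.92 ± 0.15 and 1.25 ± 0.20, SD, n = 3). Over the 7 cultures *H2afz* over *H2afv* in total over 4sU was -3.83 ± 0.41 on the log2 scale and below 0 in 7 of 7 (exact sign-flip permutation p = 0.0156, the smallest 7 cultures allow, 0.0469 adjusted over 3 pairs). That test pooled the genotypes, whose means were -4.20 in wild type and -3.56 in *Ddx6* KO. It also took cultures of the same clone as separate units. Of the windows of *H2afz*, 69.6% recur in other genes, none of them overlapping it, and none of *H2afv* do. In the paired-end run *H2afz* was 2.70 times as high as in the single-end run. With the single-end run alone, the wild-type log2 total over 4sU of *H2afz* was -2.15 and its percentile 12.1, and the pair differed by -2.95.

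*H2afx* showed the greatest 4sU difference of the members. The gene (chromosome 9, plus strand, 44334694 to 44336077) was at 804, 842 and 865 CPM in wild-type 4sU RNA and at 268, 356, 323 and 332 in *Ddx6* KO. In total RNA it was at 671, 663 and 687 CPM in wild type and 401, 414, 377 and 402 in *Ddx6* KO. The knockout was lower in both readouts, without overlap, but by more in 4sU RNA (-1.39 ± 0.06, log2, SE; edgeR adjusted p = 1.46e-26) than in total RNA (-0.76 ± 0.06, adjusted p = 6.43e-17). Total over 4sU therefore rose, from -0.31 ± 0.04 to 0.33 ± 0.17 (SD, n = 3 and 4).

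The changes of *H2afx* lay within the range of the replication-dependent histone genes, from -2.29 to -0.39 in 4sU RNA and from 0.40 to 2.11 in total over 4sU. The far ends, -2.29 and 2.11, both came from *Hist3h2bb-ps*, at 9.41 CPM in wild-type 4sU RNA and 2.53 in wild-type total RNA. Of the 68 replication-dependent histone genes by symbol, 60 were tested. In 4sU RNA 59 of them fell and 0 rose (21.0% of all genes fell), with a median of -1.42. In total RNA 45 fell and 2 rose (31.0% of all genes fell and 19.5% rose), with a median of -0.55. In total over 4sU 50 rose and 0 fell (3.79% of all genes rose and 8.58% fell), with a median of 0.87. The wild-type level of total over 4sU set *H2afx* apart from most of the class. Only 3 of the 60 genes lay above *H2afx* (-0.31), and their median was -1.41. Many of these genes are near-identical copies, so their own counts from uniquely mapped reads are uncertain. Of the windows of *H2afx*, 9.66% recur in transcripts of 43 other genes, with H2A genes among them.

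*H2afx* lies 269 kb from *Ddx6* (44604892 to 44640731) on the same chromosome. The 26 other tested genes within 300 kb of *H2afx* had a median 4sU difference of -0.15, from -0.998 to 1.25, and 6 of them fell and 4 rose. Of all tested genes, 21.0% fell and 20.6% rose in 4sU RNA. The part of the edited locus in the result was not tested.

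**Figure D4:**
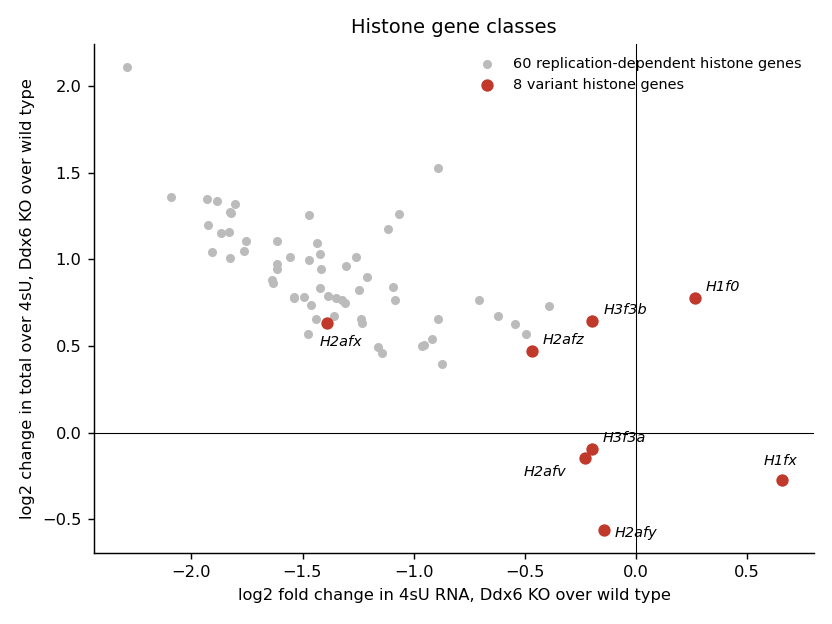
Log2 change in 4sU RNA (horizontal) against log2 change in total over 4sU (vertical), Ddx6 KO over wild type, for 60 replication-dependent histone genes (grey) and the 8 variant genes (red). Both axes use the same 4sU libraries, so they are not independent. H2afx lies at -1.39 and 0.63, among the replication-dependent genes, and H2afy, H2afv, H3f3a and H1fx lie below 0 on the vertical axis.

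*H2afy*, the macroH2A1 gene (chromosome 13, minus strand, 56073619 to 56136361), was the member whose total over 4sU fell. It was at 44.7, 54.6 and 52.1 CPM in wild-type 4sU RNA and at 47.5, 43.0, 41.4 and 51.2 in *Ddx6* KO, groups that overlapped (-0.14 ± 0.10, edgeR adjusted p = 0.262). Its total RNA was 204, 204 and 199 CPM in wild type and 123, 122, 129 and 123 in *Ddx6* KO, without overlap (-0.70 ± 0.06, log2, SE; edgeR adjusted p = 6.34e-15). In wild type it stood at the 97.3 percentile of tested genes for total over 4sU (log2 2.00 ± 0.16, SD, n = 3) and in *Ddx6* KO at the 93.3 percentile (1.44 ± 0.16, n = 4). Of its windows 8.76% recur in 1 other gene, which overlaps it. Its relative *H2afy2*, which encodes macroH2A2, was at 0.00 in total RNA and -0.18 in total over 4sU and was not called in either.

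*H1f0*, which encodes the linker histone H1.0, was the one member with a total RNA change above 2-fold, a rule that 10.1% of genes met. The gene lies on the plus strand of chromosome 15 (79028450 to 79030504). It was at 67.7, 65.7 and 62.6 CPM in wild-type total RNA and 142, 129, 132 and 134 in *Ddx6* KO, a rise of 2.06-fold (log2 1.04 ± 0.07, SE; edgeR adjusted p = 7.9e-19). In 4sU RNA it was at 69.1, 79.1 and 58.6 CPM in wild type and 79.9, 83.8, 84.7 and 82.9 in *Ddx6* KO. In 4sU RNA the lowest knockout culture lay just above the highest wild-type culture. This difference of 0.26 ± 0.09 (adjusted p = 0.0143) was not called without wild-type culture 3 (0.15), with the replicate number as a block (0.20), in clone 1 alone (0.25) or in the re-sequencing run alone (0.13).

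*H1fx*, the gene of H1.10, is on the minus strand of chromosome 6 (87980421 to 87981637) and had the lowest counts, 29 to 48 in wild-type 4sU libraries. It was at 21.3, 11.7 and 10.5 CPM in wild-type 4sU RNA and at 16.8, 27.6, 23.3 and 21.9 in *Ddx6* KO, so that the groups overlapped although the difference of 0.66 ± 0.19 (log2, SE) was called (edgeR adjusted p = 0.00337). It was not called without wild-type culture 2 (0.52) or without wild-type culture 3 (0.46), and it was 0.998 without wild-type culture 1, so that its size rested on single wild-type libraries. In total RNA it was at 19.9, 17.1 and 17.4 CPM in wild type and 22.4, 24.3, 23.2 and 24.4 in *Ddx6* KO (0.38 ± 0.13, adjusted p = 0.0137), and it was not called without wild-type culture 2 (0.34), with limma-voom (0.39) or with the replicate number as a block (0.30). Over the 735 tested genes of chromosome 6, the median difference was 0.53 in 4sU RNA and 0.43 in total RNA, against -0.02 and -0.12 over the other chromosomes. *H1fx* thus sat 0.12 above the chromosome 6 median in 4sU RNA and 0.05 below it in total RNA. The part of the chromosome-wide difference in the result was not tested. Of the windows of *H1fx*, 14.04% recur in 1 other gene, which overlaps it.

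The log2 ratio of *H1f0* to *H1fx* rose by 0.66 in total RNA and by 1.06 in total over 4sU, each with an exact two-sided permutation p of 0.0571, and changed by -0.40 in 4sU RNA (p = 0.229). The last value was -0.71 without wild-type culture 1, -0.18 without wild-type culture 2, -0.19 in the first run alone and -0.91 in the re-sequencing run alone. The translated coding sequences of these 2 genes are 20.4% identical, so that they are relatives and not near copies.

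**Figure D5:**
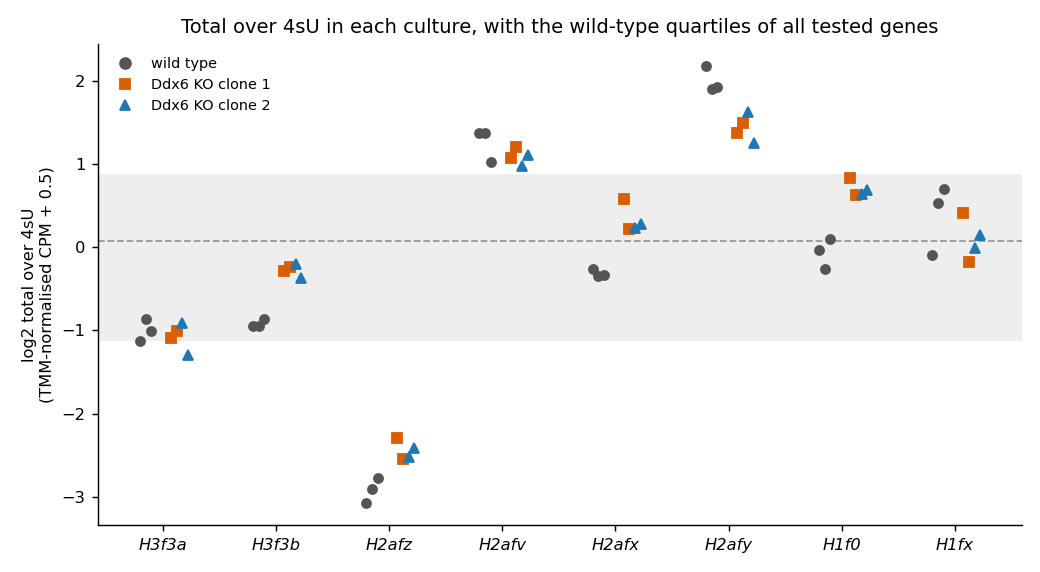
Log2 ratio of total over 4sU (TMM-normalised CPM with a pseudocount of 0.5) for each gene in each culture. The grey band spans the wild-type quartiles of all 14518 tested genes and the dashed line is their median of 0.07. H2afz lies below the band in every culture, H2afv and H2afy above it, and the groups do not overlap for H3f3b, H2afz, H2afx, H2afy and H1f0.

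In wild-type cells the order of total over 4sU from low to high was *H2afz* (-2.92), *H3f3a* (-0.998 ± 0.13), *H3f3b* (-0.92 ± 0.05), *H2afx* (-0.31), *H1f0* (-0.07 ± 0.18), *H1fx* (0.38 ± 0.42), *H2afv* (1.25) and *H2afy* (2.00). The neighbours *H3f3a* and *H3f3b* lay within the sum of their SDs, as did *H1f0* and *H1fx*. The groups of *Ddx6* KO and wild type did not overlap for 5 members, where 22.9% of all tested genes had groups that did not overlap. In *Ddx6* KO cells *H3f3b* went from the 27.6 to the 41.4 percentile of genes, *H2afx* from the 39.8 to the 60.6 and *H1f0* from the 46.1 to the 73.8.

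Per kilobase of annotated exon, the wild-type total RNA level was highest for *H2afx* (487 ± 8.62 CPM per kb, SD, n = 3), then *H3f3b* (135 ± 2.65), *H2afy* (94.8 ± 1.38), *H2afv* (54.9 ± 1.60), *H2afz* (30.9 ± 1.71), *H1f0* (28.6 ± 1.13), *H1fx* (14.9 ± 1.27) and *H3f3a* (10.1 ± 0.84). The levels of *H2afz* and *H1f0* lay within the sum of their SDs. In 4sU RNA *H2afx* was again highest (605 ± 22.1), followed by *H3f3b* (256 ± 12.5) and *H2afz* (236 ± 14.1), which lay within the sum of their SDs. Reads from recurring windows were left out of the counts where they mapped to several places, which bears most on *H2afz* and *H3f3a*.

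No member was called different between the 2 clones, where 0.172% of all tested genes were in 4sU RNA, 0.296% in total RNA and 0.00689% in total over 4sU, so that 0 of 8 says little about the members. The difference of clone 2 from clone 1 was between -0.14 and 0.12 on the log2 scale over the 24 combinations of gene and readout, with 0 called by edgeR's quasi-likelihood test (lowest adjusted p = 0.941) and 0 at an unadjusted p below 0.05. SEs of these differences reached 0.26 for *H1fx*, so modest clone differences of the low genes were not detectable at this depth.

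The deposition machinery is given as gene lists chosen by function. Beside their counts stand the shares of all tested genes, of which 19.5% rose and 31.0% fell in total RNA (median -0.10) and 3.79% rose and 8.58% fell in total over 4sU (median -0.09). Of 12 H3.3 deposition genes, 3 rose and 5 fell in total RNA (25% and 41.7%), and 0 rose and 2 fell in total over 4sU (0 and 16.7%), with a median of -0.12 in total RNA and -0.19 in total over 4sU. *Atrx*, which with *Daxx* loads H3.3 at repeats, fell in total RNA (-0.63 ± 0.05) and in total over 4sU (-0.53 ± 0.08). *Rbbp4* (-0.44) and *Nasp* (-0.40), histone-binding chaperones, fell in total RNA, and *Rbbp4* also in total over 4sU (-0.28). *Ubn2* (0.93), *Asf1a* (0.55) and *Ubn1* (0.22) rose in total RNA, and *Ubn2* is on chromosome 6. All 3 serve the HIRA pathway, whose core gene *Hira* fell (-0.37), while *Cabin1* was at -0.11 and was not called.

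Of 27 genes of the SRCAP, EP400/TIP60 and INO80 complexes and *Anp32e*, which place or remove H2A.Z, 5 rose and 11 fell in total RNA (18.5% and 40.7%), and 0 rose and 4 fell in total over 4sU (0 and 14.8%). Their medians of -0.10 and -0.11 were near those of all genes. The largest falls in total RNA were *Ino80c* (-0.66), *Ruvbl2* (-0.53) and *Srcap* (-0.43), the last the ATPase of its complex. The largest rises were *Epc2* (0.49), *Ing3* (0.46) and *Ino80b* (0.35), and the last 2 are on chromosome 6. In total over 4sU the helicase genes *Ruvbl1* (-0.62 ± 0.16) and *Ruvbl2* (-0.36 ± 0.10) and *Ep400* (-0.33 ± 0.10) fell furthest among the called genes. *Ruvbl1* is also on chromosome 6, and it rose in 4sU RNA (0.92) and in total RNA (0.30).

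Of 14 genes for H2A.X phosphorylation and reading and for FACT, 12 were tested, and 0 rose and 6 fell in total RNA (50.0% fell, median -0.22), and 0 rose and 4 fell in total over 4sU (33.3% fell, median -0.12). *Mdc1* (-0.60), which binds phosphorylated H2A.X, the kinase gene *Prkdc* (-0.55) and the ubiquitin ligase gene *Rnf168* (-0.28) fell most in total RNA. *Prkdc* (-0.51), the FACT subunit gene *Supt16* (-0.47) and the kinase gene *Atr* (-0.43) fell most in total over 4sU.

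Of 8 general chaperone genes, 0 rose and 7 fell in total RNA (87.5% fell, median -0.35 against -0.10 over all genes), led by *Npm1* (-0.60), *Set* (-0.51) and *Anp32a* (-0.46), and 2 of the 8, *Nap1l4* (-0.41) and *Nap1l1* (-0.33), fell in total over 4sU (25% against 8.58% of all genes). Of 11 other replication-independent histone genes, 3 were tested. *Cenpa*, the centromeric H3 gene, fell in 4sU RNA (-0.95 ± 0.08) and total RNA (-0.59 ± 0.07) and rose in total over 4sU (0.36 ± 0.11). *H2afj*, on chromosome 6, fell in 4sU RNA (-0.34 ± 0.08) and in total RNA (-0.66 ± 0.08), where the medians of that chromosome were 0.53 and 0.43. *H2afy2* was given above.

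Each member's nearest profile over the 14 libraries was found by the root mean square difference of centred log2 CPM. The nearest genes were *Hnrnpk* for *H3f3a* (0.10), *Elmsan1* for *H3f3b* (0.10), *Ppp1r10* for *H2afz* (0.15), *Snrnp40* for *H2afv* (0.06), *Plk1* for *H2afx* (0.15), *Sdhb* for *H2afy* (0.05), *Gpcpd1* for *H1f0* (0.13) and *Mgat4a* for *H1fx* (0.18). None of the members was nearest to another member, which says little, as each was compared with all other tested genes.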

How the data were processed

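After trimming with Cutadapt 1.14, the authors aligned reads to mm10 with STAR 2.5.3a and kept those with a unique position. Strand-specific gene counts came from featureCounts 1.5.3 and Gencode M14 models, from which rRNA had been taken out. What was deposited are unnormalised counts, of reads in the single-end runs and of fragments in the paired-end re-sequencing of the 4sU libraries, and both runs were summed per library. The 92 spike-in rows held 0 counts and were dropped. The deposited gene lengths in bases, another column of the tables, served only for levels per kilobase.

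A gene was tested if 3 or more libraries reached 3 CPM. Counts were scaled with TMM and tested with the robust quasi-likelihood test of edgeR 4.0.16 (R 4.3.3) in 1 model of genotype, assay and their interaction, with Benjamini-Hochberg adjustment over all genes tested per contrast and calls at an adjusted p below 0.05. Nothing says that the cultures were grown independently, so p-values may measure technical spread. Log2 ratios of CPM used a pseudocount of 0.5 CPM. In tests on simulated data for stability, 45 of 50 genes planted at 2-fold were called, and 10 of 14317 unchanged genes. Planted genes averaged more than 50 counts, a single spread was used for all genes, and unplanted genes stayed at wild-type levels. These rates need not hold for the real data, where many genes changed and no member's stability change reached 2-fold. Features came from the Gencode M21 principal transcript. The floor of 3 counts allows at most 1.23 CPM in the smallest 4sU library and 0.524 CPM in the smallest total RNA library, and covers counting error only.

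The 4sU and total RNA libraries of 1 culture come from the same extract, and their deviations from the group means correlated at 0.0035 to 0.12. Members, gene lists and tests were chosen with earlier results of these data known. Named genes were the members, *Ddx6*, the 3 called genes of each list that rose and fell most in total RNA and in stability, and the gene with the nearest profile to each member. Exceptions named after their values were seen are *Postn*, *H2afy2*, *Hira*, *Cabin1*, *Hist3h2bb-ps* and the stem-loop genes. Alternatives were DESeq2 1.42.0, limma-voom (limma 3.58.1), other scalings and filters, each run, each clone, each culture left out, blocks and a fold change threshold.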

Additional observations from a re-analysis of the deposited data

Results flagged for a closer look

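Each member's 4 *Ddx6* KO cultures were searched for a culture that stands apart in 4sU RNA, total RNA and total over 4sU, which made 24 groups, of which chance would mark about 1.2. In this search 2 groups were marked. For *H2afx* in total over 4sU, clone 1 culture 1 was at 0.58 on the log2 scale and the other 3 cultures were at 0.22, 0.22 and 0.28, so that its gap was 0.837 of the range against a critical value of 0.829. For *H2afy* in total RNA, clone 2 culture 1 was at 129 CPM and the other 3 cultures were at 122 to 123, with a gap of 0.852 of the range on the log2 scale. Without clone 1 culture 1 the *H2afx* stability change was 0.56 in place of 0.63, and without clone 2 culture 1 the *H2afy* total RNA change was -0.71 in place of -0.70, and both were still called.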

How the results depend on the processing

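The 5 stability calls of members kept their sign and their call in all 19 alternative fits, as did the total RNA calls of *H1f0*, *H3f3b*, *H2afx*, *H2afy* and *H2afv* and the 4sU calls of *H2afx* and *H2afz* in theirs. With culture as a replicate block, 2036 genes were called for stability in place of 1796 and no member's call changed. With the replicate number as a replicate block, the numbers of wild-type and *Ddx6* KO cultures being shared numbers only (mean correlation 0.014 in 4sU RNA and 0.017 in total RNA), *H1f0* in 4sU RNA was at 0.20 (adjusted p = 0.0763) and *H1fx* in total RNA at 0.30 (adjusted p = 0.0882). With library size alone, 4sU changes turned to 0.0096 for *H3f3b*, 0.0082 for *H3f3a* and 0.063 for *H2afy*. *H3f3b* in 4sU RNA was at -0.14 and not called with no filter, and *H3f3a* in 4sU RNA was called (-0.27) without clone 2 culture 2. *H2afz* in total RNA was at -0.00069 with limma-voom and from -0.028 to 0.048 with 1 culture left out. With the fold change threshold, 1 member was called in 4sU RNA, 1 in total RNA and 0 for stability, and 1587, 1472 and 157 of all genes. Leaving out 1 culture gave 3 to 6 members called in 4sU RNA (3 without wild-type culture 3), 5 to 7 in total RNA and 5 for stability. Over all genes stability calls then numbered 1026 to 1618 (1157 without wild-type culture 1, 1026 without wild-type culture 2), and 1071 in clone 1 alone, 1111 in clone 2 alone and 1125 in the re-sequencing run alone. *H3f3a* over *H3f3b* in 4sU RNA changed sign around 0, at 0.0076 in the re-sequencing run, 0.044 in clone 2 alone and -0.066 to 0.053 with 1 culture left out. The cause of these shifts was not tested. *H3f3a* over *H3f3b* in total over 4sU was -0.09 ± 0.14 in wild type, with 1 of 3 cultures above 0, and -0.82 ± 0.10 in *Ddx6* KO, so that its mean of -0.50 ± 0.40 over the 7 cultures (exact sign-flip permutation p = 0.0312, and 0.0781 with the first run alone) rests on the *Ddx6* KO cultures. For *H1f0* over *H1fx* that mean was 0.15 ± 0.64 (exact p = 0.562). Low counts limit *H1fx* most.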
